A study of Mus musculus with 32 samples.

Results

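Zinc finger genes whose mouse symbol is Zfp followed by a number were followed through a series of total RNA inputs. Members were the rows with a Zfp-number symbol and at least 1 count in at least 4 of the 8 libraries made from 50 ng. The table held 336 such symbols, of which 303 met the rule, all of them annotated as protein coding; under the same detection rule 15715 genes of any name qualified. The members were selected on their counts at 50 ng, so those values at 50 ng are given as a description, and inputs were tested only among 10, 1 and 0.5 ng.

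The libraries were made by 3′Pool-seq, in which an indexed oligo-dT primer marks each sample during reverse transcription, samples are pooled, and the 3′ ends of transcripts are amplified and sequenced together. The experiment varied how much total RNA entered the reverse transcription: 50, 10, 1 or 0.5 ng. At each input there were 4 libraries from wild-type (WT) mice and 4 from mice homozygous for the GFAP-IL6 transgene, 32 libraries in all. Every mouse was C57BL/6 and 3 months old, and every library came from Trizol-extracted frontal cortex RNA. In GFAP-IL6 mice, a model of neuroinflammation, the Gfap promoter drives interleukin 6 in astrocytes and not in every cell. The labels name no other treatment.

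Most Zfp-number genes encode proteins with C2H2 zinc fingers, small folds in which a pair of cysteines and a pair of histidines hold a zinc ion, and which are usually strung in arrays that read DNA bases. Many of them also carry a KRAB domain, which recruits the corepressor Trim28 (KAP1) and silences retroelements, and these genes lie in large tandem clusters that arose by duplication. The symbol also covers unrelated zinc finger types, such as the CCCH fingers of the mRNA decay factor Zfp36, and proteins that work on RNA, ubiquitin or the cytoskeleton. Transcription factor mRNAs are generally rare in a cell.

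Total counts ran from 261378 to 9840302 per library, with medians of 3603629, 4463016, 1457725 and 1428120 for 50, 10, 1 and 0.5 ng, so depth moved with input. Neuronal Snap25 (3007 to 5043 CPM, its counts scaled to a common library total) and astrocyte Slc1a2 (699 to 2602 CPM) were high in every library, excitatory neuron Slc17a7 was present in every library at 15.3 to 71.5 CPM, and the endothelial gene Cldn5 was at 0 in some. Choroid plexus Ttr was 3003 to 3355 CPM in WT replicate 3 at all 4 inputs. Il6 counts in GFAP-IL6 replicates 1 to 4 were 17, 9, 22 and 4 at 50 ng and 41, 2, 27 and 20 at 10 ng, against 0 to 3 in WT libraries. At 1 ng the library labelled WT replicate 3 held 13 Il6 counts while those labelled GFAP-IL6 replicates 2 and 3 held 0, and at 0.5 ng no library held any. Microglial Ctss did follow the labels at 1 ng, at 143 to 207 CPM in WT and 455 to 732 CPM in GFAP-IL6 libraries. The ranges of microglial Cx3cr1 (8.19 to 23.6 CPM in WT and 3.83 to 66.9 in GFAP-IL6) overlapped at that input. So did those of astrocyte Gfap (8.175 to 22.5 and 11.8 to 76.5). Microglial Csf1r had 1 ng means of 35.04 CPM in WT and 34.4 in GFAP-IL6. Of these genes, only Ctss separated the groups at 1 ng. GFAP-IL6 replicate 4 at 50 ng stood apart from its group: the estimated biological coefficient of variation between genotypes at 50 ng was 0.214 with it and 0.130 without it. In whole tissue, fewer cells of a type and less RNA per cell cannot be told apart.

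The members were mostly weakly expressed. The mean over all 32 libraries had a median of 7.15 CPM (quartiles 3.11 and 15.4) and ranged from 0.112 to 283 CPM, while the median over all genes that met the detection rule was 13.4 CPM. Of the 303 members, 196 had a mean under 10 CPM and 20 reached 50 CPM. These CPM values come from 3′ end counts and were not divided by transcript length.

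The highest member was Zfp706, a small zinc finger gene at chr15:36997027-37007773 (minus strand, GRCm38) known for a role in embryonic stem cells leaving self-renewal. Its means for 50, 10, 1 and 0.5 ng were 314 ± 63.9, 279 ± 40.9, 264 ± 48.3 and 277 ± 50.9 CPM (SD, n = 8 each). In single libraries it ran from 203 to 333 CPM with 10 ng, 176 to 338 with 1 ng and 223 to 365 with 0.5 ng, so the ranges of these inputs overlapped. Its exons overlap a gene on the other strand and 35.0% of the 70-base words in its last 500 bases recur in other transcripts, which leaves its level uncertain.

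Zfp365, which encodes a centrosomal protein that binds the psychiatric risk factor DISC1, came next, on chr10:67886103-67912662 (minus strand). In the same order of inputs it stood at 208 ± 63.8, 179.7 ± 27.7, 165 ± 26.7 and 192 ± 67.1 CPM (SD, n = 8 each). No C2H2 pattern was found in its coding sequence. The next were Zfp106, an RNA-binding protein needed by motor neurons (143 ± 57.5 CPM at 10 ng and 159 ± 63.7 at 0.5 ng), Zfp148, a factor of GC-rich promoters (109 ± 23.9 and 118 ± 63.1), and Zfp91, an E3 ubiquitin ligase (104 ± 24.2 and 78.8 ± 34.7; all SD, n = 8). The 10 highest members were completed by Zfp637, Zfp644, Zfp281, Zfp638 and Zfp292. Of these 10, all had counts in all 32 libraries but for Zfp638, which had none in GFAP-IL6 replicate 2 at 0.5 ng. The order among Zfp106, Zfp148 and Zfp91 at 10 ng was within the spread of their libraries.

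**Figure D1:**
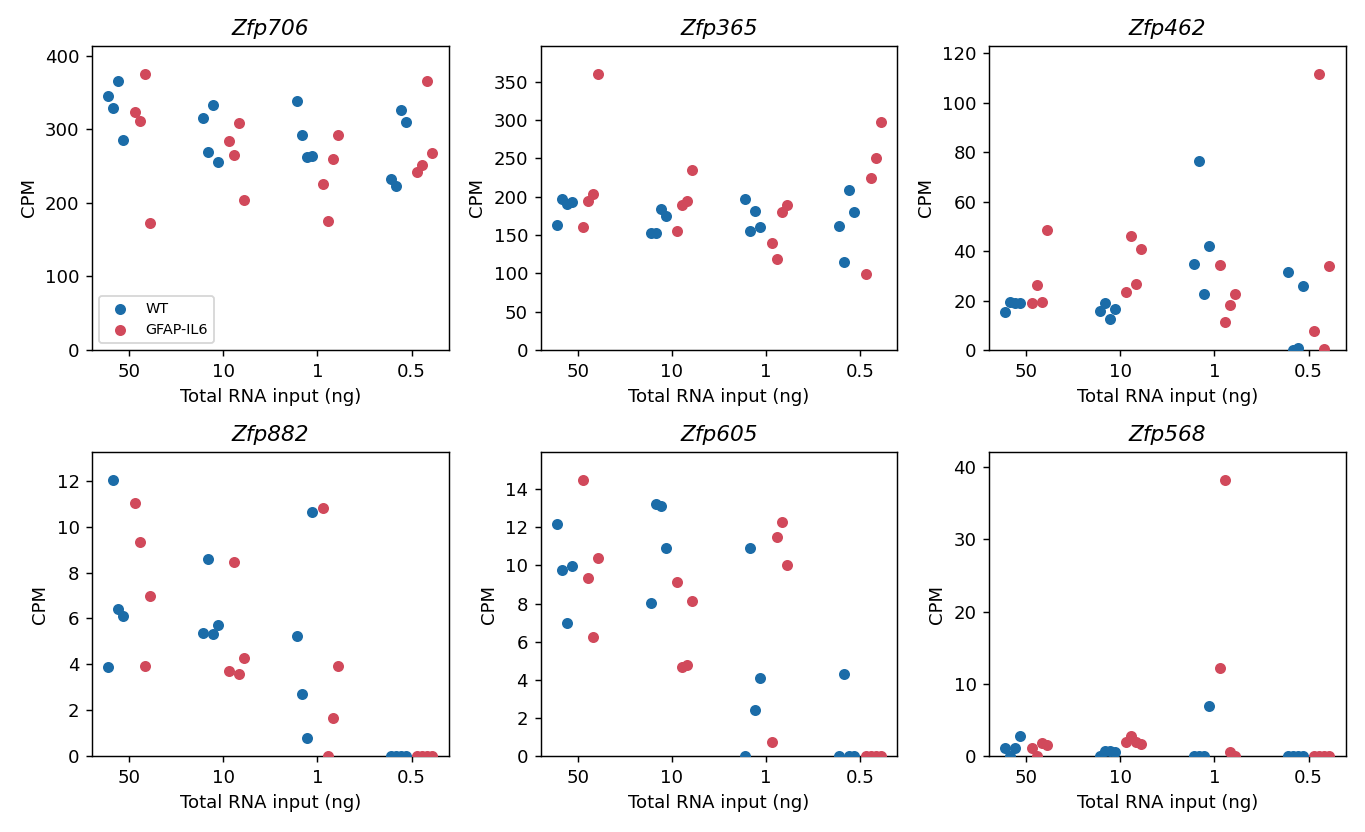
CPM of Zfp706, Zfp365, Zfp462, Zfp882, Zfp605 and Zfp568 in every library, by input in ng, with WT and GFAP-IL6 libraries as separate points. Zfp706 and Zfp365 had counts in every library, while Zfp882 and Zfp568 were at 0 in all 8 libraries at 0.5 ng and Zfp605 was above 0 there in 1 library.

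Fewer members had at least 1 count in each 1 ng library than in any 10 ng library. At 50 ng the WT libraries held 293, 278, 294 and 301 of the 303 members and the GFAP-IL6 libraries 298, 280, 301 and 299, replicates 1 to 4 in order. At 10 ng the counts were 286, 276, 286 and 296 in WT and 292, 269, 289 and 296 in GFAP-IL6. At 1 ng they were 218, 167, 203 and 250 in WT and 210, 152, 237 and 244 in GFAP-IL6. All 8 libraries at 1 ng lay under all 8 at 10 ng. At 0.5 ng the WT libraries held 163, 138, 179 and 196 members and the GFAP-IL6 libraries 178, 122, 186 and 203, a range that overlapped that at 1 ng. From the highest input to the lowest the means were 293 ± 9.13, 286 ± 9.51, 210.1 ± 35.5 and 171 ± 28.1 (SD, n = 8 each), or 96.7%, 94.5%, 69.3% and 56.3% of the members. The mean number of zeros per library was 10, 16.8, 92.9 and 132. At each input the WT and GFAP-IL6 means lay close together against that spread, with 286 and 286.5 for 10 ng, 209.5 and 210.8 for 1 ng, and 169 and 172 for 0.5 ng.

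**Figure D2:**
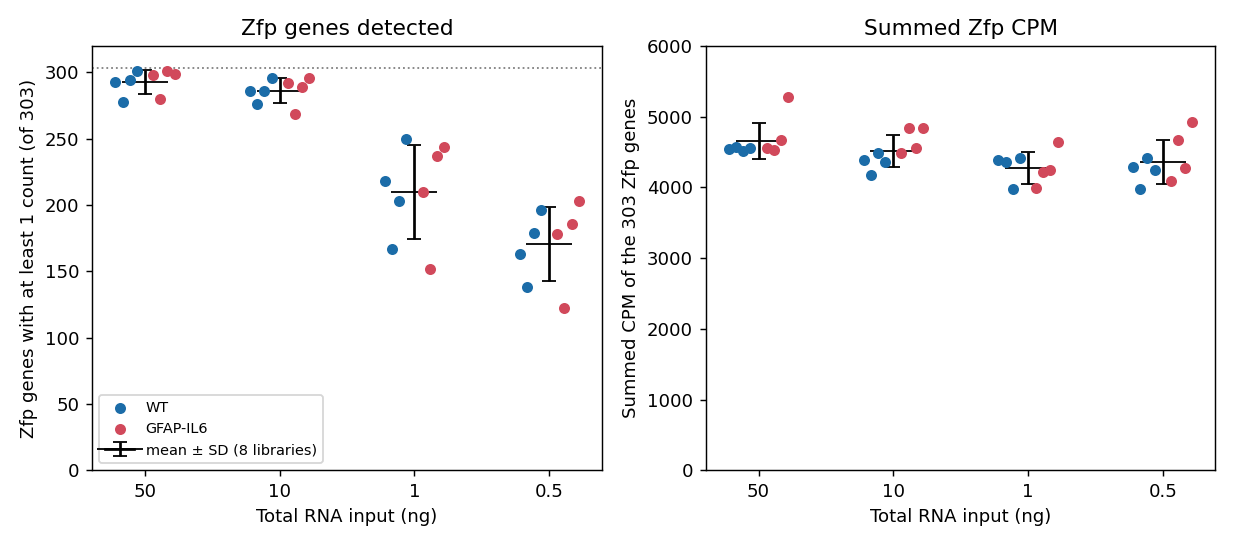
Left, number of the 303 members with at least 1 count in each library; right, their summed CPM, both by input in ng with WT and GFAP-IL6 libraries as separate points. Libraries of 10 ng held 269 to 296 members and those of 1 ng 152 to 250, while the summed CPM stayed between 3972 and 5281 in all 32 libraries.

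Depth differed between the inputs, so detection was also worked out at equal depth. With every library thinned to the lowest total, 261378 counts, the expected number of members detected for 50, 10, 1 and 0.5 ng was 224 ± 4.27, 218 ± 4.98, 173 ± 16.4 and 142 ± 15.7 (SD, n = 8 each). The ranges were 209.6 to 225 for the 10 ng libraries and 152 to 196 for the 1 ng libraries and did not overlap. Each low-input library was then set against its same-numbered 10 ng library thinned to the same total. The detected members were 0.785 ± 0.0637 of the number expected at 1 ng (SD, n = 8, range 0.694 to 0.871) and 0.632 ± 0.0545 at 0.5 ng (range 0.542 to 0.700). For all 15715 genes of the detection rule these ratios were 0.857 ± 0.0136 and 0.763 ± 0.0248.

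**Figure D3:**
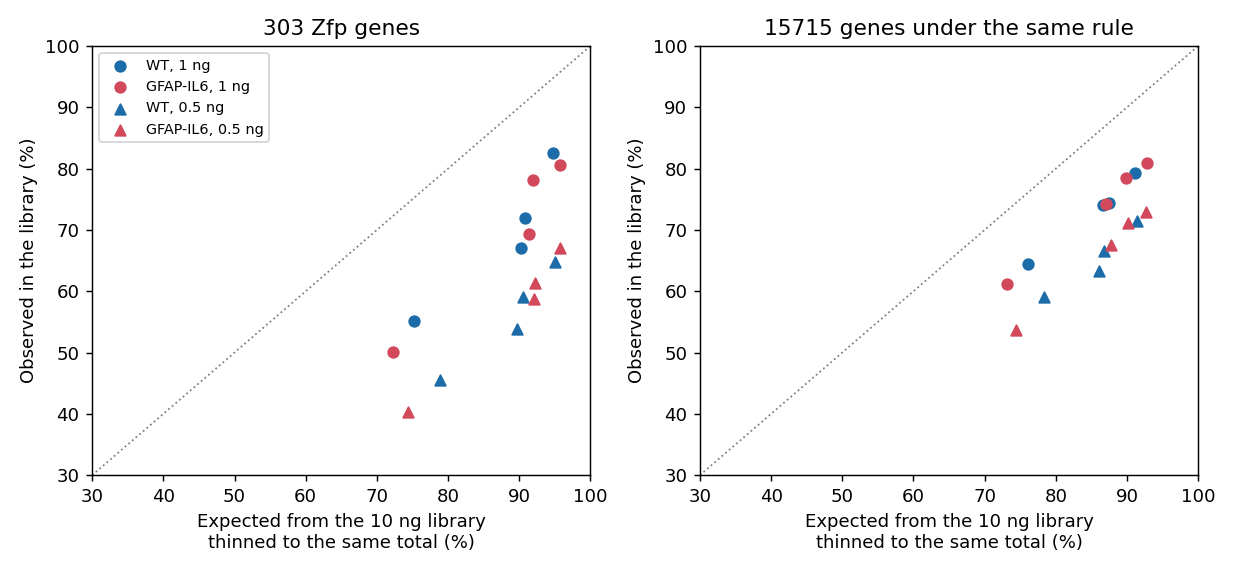
Percent of the members (left) and of all genes of the detection rule (right) observed in each 1 and 0.5 ng library, against the percent expected from the same-numbered 10 ng library thinned to the same total, with a dotted line where both are equal. Every point lies under the line, with observed members at 0.694 to 0.871 of the expected number for 1 ng and 0.542 to 0.700 for 0.5 ng.

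Seen gene by gene, 263, 244, 82 and 46 members had a count in all 8 libraries of 50, 10, 1 and 0.5 ng, which is 86.8%, 80.5%, 27.1% and 15.2% of the members. The same shares over all genes of the detection rule were 80.6%, 77.2%, 48.9% and 38.8%. From 10 to 1 ng, 218 members were seen in fewer libraries, 85 in the same number and 0 in more. From 1 to 0.5 ng, 170 were seen in fewer, 101 in the same number and 32 in more. No member was absent from all 8 libraries at 10 ng, 9 were absent at 1 ng (2.97%) and 27 at 0.5 ng (8.91%). Over all genes of the detection rule the absent shares were larger, at 0.388%, 6.38% and 10.9% for 10, 1 and 0.5 ng. Under the same rule the 32 Zbtb genes, whose zinc fingers are joined to a BTB domain, had counts in 97.3%, 97.3%, 78.5% and 60.5% of libraries at 50, 10, 1 and 0.5 ng, and the 18 Zkscan and Zscan genes, which carry a SCAN domain, in 95.8%, 91.7%, 63.2% and 56.9%.

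**Figure D4:**
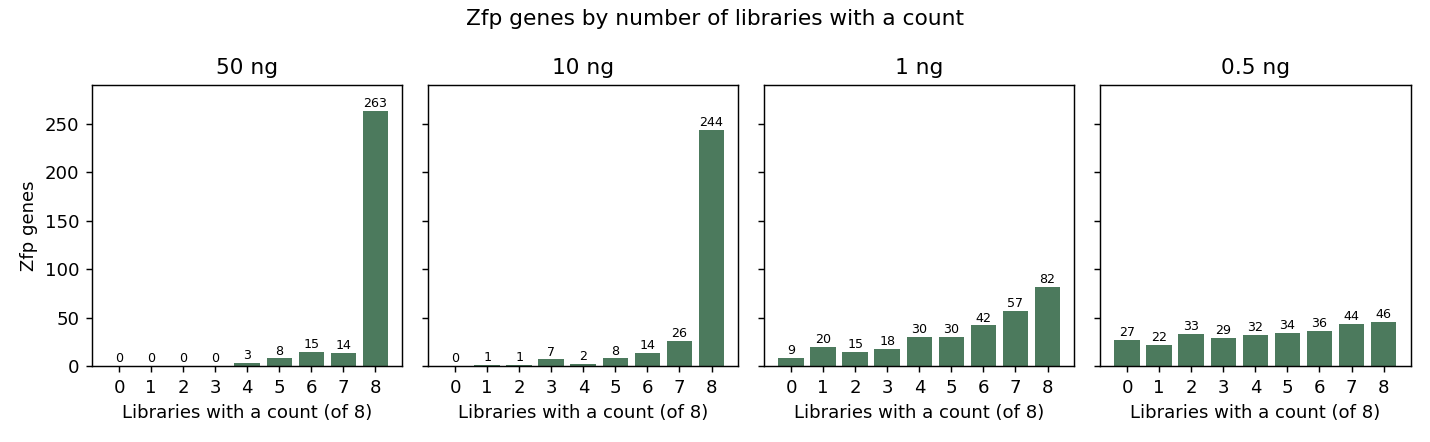
Number of members by the number of libraries, 0 to 8, in which they had at least 1 count, with an input per panel. The bar for all 8 libraries falls from 263 members at 50 ng to 46 at 0.5 ng, and the bar for 0 libraries rises from 0 to 27.

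Detection followed level. Members with a mean under 2 CPM (49 members) had counts in 21.7% of library values at 1 ng and 11% at 0.5 ng, and the 3388 other genes in that class in 19.6% and 11.6%. Between 5 and 10 CPM (81 members) the shares were 78.2% and 58.5%, against 78.4% and 61.0% in the other genes. Between 10 and 20 CPM (49 members) they were 88.3% and 79.3%, against 92.2% and 81.7%. At 50 CPM and above (20 members) they were 100% and 98.1%. Within a class of level, the members and the other genes thus lay within a few percentage points of each other. The classes were cut on means that include the low-input values, so they describe the libraries and give no test.

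**Figure D5:**
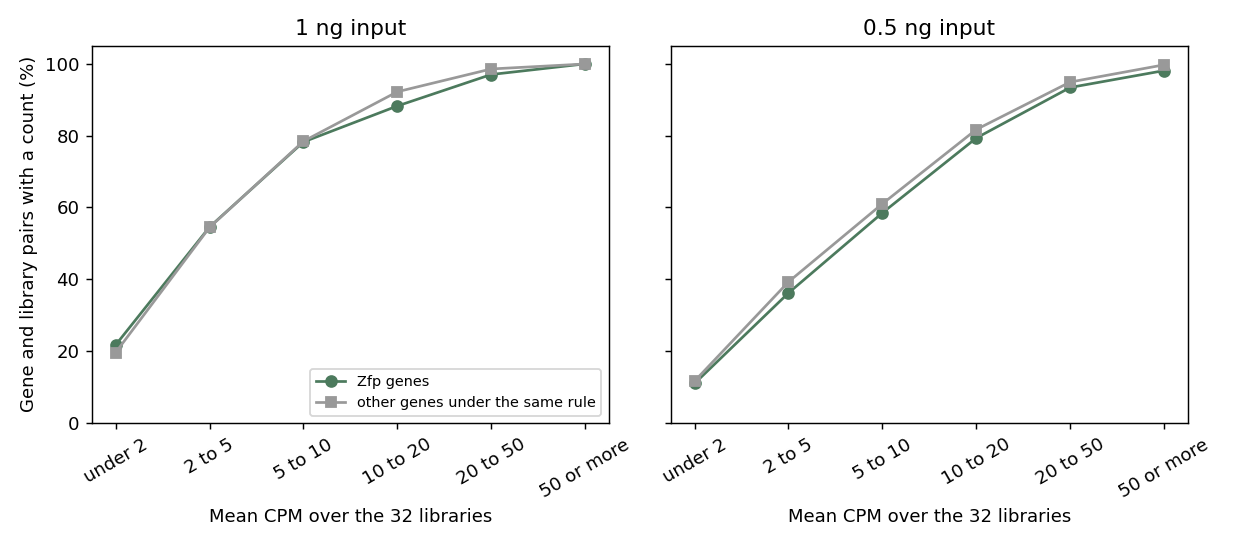
Share in percent of library values with at least 1 count, by class of mean CPM over the 32 libraries, for members and for the other genes of the detection rule, in panels for 1 and 0.5 ng. At 0.5 ng the members rise from 11% under 2 CPM to 98.1% at 50 CPM and above.

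The summed CPM of the 303 members moved far less than their detection. For 50, 10, 1 and 0.5 ng it was 4654 ± 258, 4518 ± 229, 4278 ± 224 and 4361 ± 308 (SD, n = 8 each). The ranges overlapped, at 4173 to 4843 for 10 ng, 3972 to 4641 for 1 ng and 3973 to 4924 for 0.5 ng. WT and GFAP-IL6 libraries had sums of 4354 ± 132 and 4682 ± 184 CPM with 10 ng, 4283 ± 209 and 4273 ± 271 with 1 ng, and 4232 ± 186 and 4489 ± 379 with 0.5 ng (SD, n = 4 each). The highest sum, 5281 CPM, belonged to GFAP-IL6 replicate 4 at 50 ng.

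At low input the same sum rested on fewer members. The median CPM of a detected member was 7.46, 7.71, 10.4 and 15.3 in the order of falling input. That median leaves out members at 0 and was not matched for depth, so it can rise as weak members drop out. A single count stood for a median of 0.226 CPM in the 10 ng libraries, 0.688 in those of 1 ng and 0.706 in those of 0.5 ng. The 10 highest members of a library took 26.4% of the summed CPM at 10 ng and 31.6% at 0.5 ng on average. Members with more counts in a single library than in the other 7 of that input together numbered 0, 15, 81 and 129 in that order. Among members with any count these were 4.95%, 27.6% and 46.7% at 10, 1 and 0.5 ng, against 6.94%, 21.7% and 29.8% of the other genes. Values of exactly 1 count made up 3.54% of the values above 0 at 10 ng and 8.64% at 0.5 ng.

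The spread between libraries widened in the same steps. The median coefficient of variation of a member over the 8 libraries of an input was 0.337, 0.393, 1.05 and 1.35 at 50, 10, 1 and 0.5 ng, of which counting error alone would give 0.236, 0.215, 0.426 and 0.382. Among the 58 members with a mean of 20 CPM or more it was 0.191, 0.215, 0.544 and 0.709. The 6496 other genes at 20 CPM or more gave 0.192, 0.189, 0.390 and 0.539. These sets were not matched for level, since 20 of the 58 members but 3518 of the 6496 other genes were at 50 CPM or more. As a description across genes, which are not independent, the median Pearson's r between 2 libraries of an input over the members was 0.914, 0.881, 0.620 and 0.492 (28 pairs each). Over all genes of the detection rule it was 0.965, 0.960, 0.850 and 0.786. Averaged over an input, 234 of the members had a mean at 1 ng within 2-fold of that at 10 ng (77.2%), and 208 at 0.5 ng (68.6%). The other genes gave 79.4% and 71.7%, but their levels were higher. Within the classes of level above, the members' share at 0.5 ng was the higher one in every class (72.8% against 69.8% between 5 and 10 CPM). At 1 ng it was higher in every class but 5 to 10 CPM (80.2% against 83.8%).

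What the members shared beyond their name was sequence and position, taken from the GENCODE annotation of GRCm38. A C2H2 pattern was found in the coding sequence of 295 members, with a median of 11 and a maximum of 37 in Zfp142. Members with 1 to 5 patterns (49) had a median of 17.6 CPM and were detected in 75.5% of library values at 0.5 ng, while those with 16 or more (53) had 5.45 CPM and 49.8%. Across members, the number of patterns and the mean CPM had a Spearman's rho of -0.234 (302 members), a description of genes that share ancestry and libraries. Chromosome 7 held 80 members, chromosome 17 36, chromosome 13 26 and chromosome 8 22. The 170 members with another Zfp-number gene within 100 kb had a median of 5.52 CPM and were detected in 48.5% of library values at 0.5 ng, and the 133 others had 9.74 CPM and 66.4%.

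The same annotation marks where counts are uncertain. Exons of 52 members overlap a gene on the other strand and those of 14 a gene on the same strand, and the strand setting of the counting was not given. In 26 members the last 500 bases share 70-base words with another transcript. Zfp433, Zfp935, Zfp960 and Zfp97 shared the most, and these 4 had counts in 21.9% of library values at 1 ng. Their mean CPM had a median of 1.63, and all members under 2 CPM had counts in 21.7% of library values at that input.

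Members with roles in RNA, ubiquitin, SUMO, spindle or cytoskeleton biology were 11, led by Zfp106 and Zfp91. Zfp207, a spindle protein, stood at 62.1 ± 6.26 CPM at 10 ng and 46.3 ± 39.1 at 0.5 ng, and the SUMO ligase Zfp451 at 66.6 ± 14.9 and 61.1 ± 20.7 (SD, n = 8). Zfp36, which drives decay of AU-rich mRNAs, was at 2.24 ± 1.28 CPM at 10 ng and was seen in 4 of 8 libraries at 0.5 ng. The lowest was Zfp185, an actin-associated LIM protein, at 0.763 ± 1.35 CPM at 10 ng and 0 counts at 0.5 ng. The summed level of the list had a median of 515 CPM at 10 ng (467 to 710.2) and 447 at 0.5 ng (374 to 886).

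Members tied to neural development or brain disease were 12, led by Zfp365 and Zfp148. Zfp191, also named Zfp24, which oligodendrocytes need to myelinate, stood at 42.5 ± 6.28, 56.2 ± 33.9 and 47.0 ± 33.1 CPM with 10, 1 and 0.5 ng, with counts in all 8 libraries each time. Zfp335, a microcephaly gene, was seen in 8 of 8 libraries at 10 ng and 3 of 8 at 0.5 ng. The lowest were Zfp423, a cerebellar development factor, at 2.76 ± 1.88 CPM at 10 ng, and Zfp503, a striatal development factor, at 1.37 ± 1.26 (SD, n = 8). Zfp503 was seen in 5, 1 and 2 of 8 libraries at 10, 1 and 0.5 ng. The sum of the list had medians of 436, 438 and 452 CPM at 10, 1 and 0.5 ng, while the number of its members seen per library fell from 11.5 to 10 and 8.75.

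Genes of imprint maintenance and retroelement silencing were listed as 6, of which 4 were members. Zfp57, which protects imprints in the early embryo, had counts in 2 of 8 libraries at 50 ng, and Zfp708 had none in any library. The highest of the 4, Zfp932, a repressor of endogenous retroviruses, stood at 8.26 ± 2.70, 11.8 ± 7.54 and 3.57 ± 6.06 CPM with 10, 1 and 0.5 ng (SD, n = 8). Zfp809, which silences murine leukemia viruses, was seen in 8, 5 and 1 of 8 libraries, and Zfp445, a partner of Zfp57 at imprints, in 7, 4 and 1.

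Zfp568, which silences a placental transcript of Igf2, shows how such a gene looked at low input. At 10 ng its WT libraries held 0, 0.660, 0.758 and 0.594 CPM and its GFAP-IL6 libraries 1.97, 2.82, 1.98 and 1.63. At 1 ng the WT libraries held 0, 0, 0 and 6.95 CPM and the GFAP-IL6 libraries 12.2, 38.3, 0.557 and 0, where 38.3 CPM was 10 counts. At 0.5 ng all 8 were at 0. A few low-input libraries were thus far above the 10 ng level and the rest at or near 0. For the 4 members together, the summed CPM for 10, 1 and 0.5 ng had medians of 15.3 (11.6 to 21.6), 23.7 (7.50 to 57.4) and 0.576 (0 to 30.1).

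Chromatin and promoter factors were 9. Zfp281, a pluripotency factor, was the highest at 67.0 ± 13.1, 80.0 ± 32.4 and 58.2 ± 27.4 CPM with 10, 1 and 0.5 ng (SD, n = 8), with 3.84 CPM in GFAP-IL6 replicate 1 at 0.5 ng. Zfp143, which binds promoters and takes part in chromatin loops, was seen in 7 of 8 libraries at 10 and at 1 ng and in 2 of 8 at 0.5 ng. Zfp217 was the lowest, at 1.31 ± 1.40 CPM at 10 ng and in 1 of 8 libraries at 1 and at 0.5 ng. The stem cell gene Zfp42 (Rex1), which marks pluripotent cells, had no count in any library. In edgeR's main tests, described next, none of the members on these 4 lists was called in a comparison of input or genotype. Of the 10, 12, 3 and 8 tested at 0.5 against 10 ng, in the order of the lists above, 0 were higher and 0 lower. DESeq2 called Zfp462 between genotypes at 10 ng, as did fits without a filter on low counts or with same-numbered libraries as blocks. A single fit of all 32 libraries called Zfp568 lower at 0.5 than at 1 ng. With a library left out, Zfp335 and Zfp809 were called in 1 fit each at 0.5 against 10 ng.

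Input was tested in edgeR's quasi-likelihood test with genotype as a covariate, over all genes with a mean of at least 1 CPM, a call being an adjusted p under 0.05 with an absolute log2 fold change above 1. At 1 against 10 ng, 269 members were tested, of which 0 were higher and 1 lower (0.372%), where all 13374 genes gave 0.0523% called lower and 0% called higher. At 0.5 against 10 ng, 270 members were tested, of which 0 were higher and 8 lower (2.96%), where all 13283 genes gave 1.26% called lower and 0.0753% called higher. At 0.5 against 1 ng, edgeR called 0 of 265 members and 0% of 13228 genes, with 23 members (8.68%) at an unadjusted p under 0.05, beside 7.82% of all genes, and 0 members called by DESeq2. The median log2 fold change was -0.18 over the members and -0.04 over all genes at 1 against 10 ng, -0.30 and -0.10 at 0.5 against 10 ng, and -0.10 and -0.02 at 0.5 against 1 ng. Members at 0 in a whole input numbered 1, 4 and 9 of those tested, in the same order. Setting them to their bound, the level of 3 counts, left these medians at the same values, since so few values can hardly move a median.

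The member called at 1 ng was Zfp128 (chr7:12881177-12893422, plus strand), which lies within 100 kb of another Zfp-number gene. At 10 ng its WT libraries held 6.17, 1.98, 2.02 and 3.09 CPM and its GFAP-IL6 libraries 3.45, 0.939, 3.77 and 5.69, while all 8 libraries at 1 ng had 0 counts. Taken over the group against a floor of 3 counts, it was at least 15.97-fold lower at 1 ng (edgeR quasi-likelihood test, adjusted p = 0.0379). At 0.5 ng it was back in WT replicate 3, at 29.3 CPM from 38 counts, and in GFAP-IL6 replicate 1, at 1.28 CPM from 2 counts. Leaving out each library in turn kept the call in 2 of 16 fits, those without WT or GFAP-IL6 replicate 2 at 1 ng, and lost it in the rest. With same-numbered libraries as blocks, or with filterByExpr as the filter, Zfp128 was not called either. Zfp128 passed the filter of a mean of 1 CPM through its 10 ng counts alone, so its test could only show a fall.

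Of the 8 members called lower at 0.5 than at 10 ng, 4 had no count in any 0.5 ng library. These 4 passed the filter of a mean of 1 CPM through their 10 ng counts alone, so their tests could only show a fall. With filterByExpr as the filter, the members called were Zfp882, Zfp959, Zfp605 and Zfp759. Zfp882 (on chromosome 8) held 5.35, 8.59, 5.30 and 5.70 CPM in WT and 3.69, 8.45, 3.57 and 4.27 in GFAP-IL6 at 10 ng. It still had counts in 7 of 8 libraries at 1 ng, from 0.803 to 10.8 CPM where seen, and 0 in all 8 at 0.5 ng, which made it at least 19.9-fold lower than at 10 ng (adjusted p = 0.0232, edgeR). Its exons overlap another gene on the same strand, so its counts are uncertain.

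Zfp54 ranged from 1.32 to 6.17 CPM at 10 ng and was at least 12.4-fold lower at 0.5 ng (adjusted p = 0.0278, edgeR). At 1 ng it was at 16.4 CPM in WT replicate 2, from 6 counts, and at 0 in 5 of 8 libraries. Zfp873 was at 0 in 1 library at 10 ng and reached 7.58 CPM in another; it was at least 10.9-fold lower at 0.5 ng (adjusted p = 0.0370, edgeR). Zfp935, named above for its shared 3′ end, was at least 9.66-fold lower (adjusted p = 0.0334, edgeR).

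The other 4 kept 1 or 2 counts over all 8 libraries at 0.5 ng. Zfp605 held 8.02, 13.2, 13.1 and 10.9 CPM in WT and 9.11, 4.70, 4.76 and 8.13 in GFAP-IL6 at 10 ng, 0 to 12.3 CPM at 1 ng, and 2 counts in WT replicate 2 at 0.5 ng (4.33 CPM). Its pooled level was 54.4 times higher at 10 ng, with a 95% counting interval of 14.9 to 451 (adjusted p = 0.0261, edgeR). For Zfp959 the ratio was 71.7 (12.7 to 2844; adjusted p = 0.0232, edgeR), for Zfp759 56.1 (9.94 to 2228; adjusted p = 0.0261, edgeR) and for Zfp146 26.2 (4.57 to 1046; adjusted p = 0.0363, edgeR). Zfp605, Zfp759 and Zfp146 were named after their values were seen. With same-numbered libraries as blocks, Zfp605 alone was called, and DESeq2 did not call Zfp146, Zfp873 or Zfp935. The number of calls ran from 1 to 14 over the other ways of fitting these inputs (22 to 437 over all genes), and it rested on single libraries. At 10 ng it was 2, 1, 5 and 0 without WT replicates 1 to 4 and 5 and 1 without GFAP-IL6 replicates 3 and 4. It was 13 without either WT replicate 3 or GFAP-IL6 replicate 4 at 0.5 ng. Over all genes the same fits called 24, 10, 61 and 9, then 65 and 24, then 237 and 298.

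Counting all members, 27 (8.91%) were at 0 in all 8 libraries at 0.5 ng, beside 10.9% of all genes of the detection rule. The 0.5 ng libraries held 12082290 counts, which allows a level of up to 0.248 CPM. Of these 27 members, 24 were above that level at 10 ng and 6 were also at 0 at 1 ng. Their mean CPM at 10 ng had a median of 0.912 and reached 5.62 in Zfp882. After Zfp882, Zfp54, Zfp873 and Zfp935 the next was Zfp429, at least 7.48-fold lower than at 10 ng; edgeR's test of these 2 inputs did not call it, and a single fit of all 32 libraries did (adjusted p = 0.0195). Of the 9 members at 0 at 1 ng, 3 had counts again at 0.5 ng.

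Genotype was tested at each input in 4 GFAP-IL6 against 4 WT libraries by edgeR's quasi-likelihood test. At 50 ng, where the counts also chose the members and the result is therefore only a description, 0 of 243 members tested were called and 0.28% of all genes were; 11 members (4.53%) had an unadjusted p under 0.05, beside 5.63% of all genes, and DESeq2 called 0. At 10 ng edgeR called 0 of 251, where 0.266% of all genes were called. Of these members, 21 (8.37%) had an unadjusted p under 0.05, beside 7.49% of all genes. DESeq2 called 2 members there, among 52 genes of 12043. At 1 ng edgeR called 0 of 132 (background 0.0431%), with 5 (3.79%) at an unadjusted p under 0.05 beside 3.59% of all genes. At 0.5 ng it called 0 of 111 (background 0.0117%), with 1 (0.901%) beside 2.87%, and DESeq2 called 0 at both. The median standard error of a member's log2 fold change was 0.315, 0.389, 0.822 and 1.15 at 50, 10, 1 and 0.5 ng on a scale where a 2-fold difference is 1. Without GFAP-IL6 replicate 4 the count at 50 ng was again 0.

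The smallest p at 10 ng belonged to Zfp462, a chromatin regulator whose loss in people causes a neurodevelopmental disorder, at chr4:54945048-55083563 (plus strand). At 10 ng the WT libraries held 15.6, 19.2, 12.6 and 16.4 CPM and the GFAP-IL6 libraries 23.6, 46.0, 26.8 and 40.9. Every GFAP-IL6 library was above every WT library. The log2 fold change was 1.06 ± 0.264 (SE), with an adjusted p of 0.0708 in edgeR's quasi-likelihood test, which missed the threshold; DESeq2 gave an adjusted p of 0.0233. At 50 ng the WT libraries held 15.2, 19.6, 19.2 and 19.1 CPM and the GFAP-IL6 libraries 19.1, 26.1, 19.6 and 48.4, where the groups overlapped and the highest value was that of replicate 4. At 1 ng the log2 fold change was -0.95 and at 0.5 ng 1.23, with GFAP-IL6 libraries at 7.69, 112, 0.522 and 34.2 CPM at 0.5 ng. The difference between inputs was not tested.

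Zfp652, a transcriptional repressor, had the next p at 10 ng. Its WT libraries held 7.20, 7.26, 10.4 and 5.70 CPM and its GFAP-IL6 libraries 15.5, 24.4, 17.7 and 16.6, again without overlap. The log2 fold change was 1.23 ± 0.327 (SE; adjusted p = 0.109, edgeR; 0.0233 by DESeq2). At 50, 1 and 0.5 ng it was 0.54, 1.54 and -1.07. Exons of Zfp652 overlap other genes on both strands, so its counts are uncertain.

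At 50 ng the smallest p values belonged to Zfp369 and Zfp831, given as a description. Zfp369 held 7.20, 6.02, 8.90 and 7.96 CPM in WT and 11.3, 8.40, 14.1 and 18.3 in GFAP-IL6. Zfp831, which immune cells also express, held 3.04, 3.76, 3.90 and 6.23 CPM in WT and 7.82, 8.40, 5.53 and 14.5 in GFAP-IL6. In both genes the groups overlapped by 1 library and the highest library was GFAP-IL6 replicate 4.

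At the edge of the rule, Zfp526 was seen in 4 of 8 libraries at 50 ng and so was a member, with a mean of 0.314 CPM at 50 ng and 0.645 at 10 ng. Zfp953, seen in 3 of 8, was not, with 0.248 and 0.641 CPM. Zfp526 was seen in 7 libraries at 10 ng, 1 at 1 ng and 0 at 0.5 ng.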

How the data were processed

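The authors demultiplexed the reads, trimmed poly(A), aligned single-end reads with STAR 2.4 to mm10 and counted them per GENCODE M6 gene with featureCounts; the deposited values are raw counts, whole numbers per gene and library, with no molecular identifiers. Whether counting used strand is not given in the sources used here, and the submitters' processing notes name another build than the methods. CPM was each count scaled to a common library total. A member was detected at 1 count or more. The floor is 3 counts of a total, and floors and exact (Clopper-Pearson) counting intervals cover counting error only. Libraries ranged from 261378 to 9840302 counts, so a low total limits what a count of 0 shows.

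Calls were made over all genes with edgeR 4.0.16 in R 4.3.3 (TMM, quasi-likelihood test, Benjamini-Hochberg adjustment), with filterByExpr between genotypes and a mean of 1 CPM or more between inputs; SEs came from the F statistic. Alternatives were DESeq2 1.42.0, its size factors, other filters, a single fit of all libraries, thinning, other detection minimums, a replicate block and leaving out each library. Coordinates, overlaps and coding sequences came from GENCODE M21, of the same build as mm10.

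Groups came from the titles and genotypes. Nothing in the labels says whether same-numbered libraries of different inputs share RNA; correlations of deviations passed 0.1 in 1 of 8 same-numbered pairs for 1 and 10 ng, 0 of 8 for 0.5 and 10 ng, 0 of 8 for 0.5 and 1 ng, and 5 of 8 for 10 and 50 ng. The fits behind the calls therefore did not use the numbers as pairs; the numbers only chose which 10 ng library was thinned for the depth-matched ratios. The p-values measure the spread between these libraries, which may be technical. Libraries compared between inputs may not be independent.

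Named genes were the 10 highest by mean CPM, the highest and lowest of the role lists, the 5 largest called falls at 0.5 against 10 ng, the 5 highest absent at 0.5 ng, the 2 with the smallest p between genotypes at 50 and at 10 ng, and those beside the threshold of the rule. Members and lists were chosen with earlier results of these data known. The fits of genotype at 10 ng and of 1 against 10 ng were tried on simulated data, and the others were not. The simulated spread was below that estimated for 1 against 10 ng. Genes changed in the simulation lay above the level of most members, so the check says little about weak members at low input.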

Additional observations from a re-analysis of the deposited data

Results flagged for a closer look

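In groups of 4 libraries, 128 values were screened for a library far from the others by Dixon's 95% value, which chance passes in about 1 group in 20, and 8 passed. GFAP-IL6 replicate 2 at 50 ng held 280 members against 298 to 301 in the others. WT replicate 3 at 1 ng had a summed CPM of 3972 against 4353 to 4414. Zfp106 was at 262 CPM in WT replicate 2 at 0.5 ng against 109.6 to 127, and Zfp148 at 142 CPM in WT replicate 2 at 50 ng against 95.2 to 101. In GFAP-IL6 replicate 4 at 50 ng Zfp91 was at 169.5 CPM against 103 to 106 and Zfp637 at 36.4 CPM against 84.8 to 87.7. Zfp831 was at 15 CPM in GFAP-IL6 replicate 4 at 1 ng against 6.69 to 7.65, and Zfp462 at 15.2 CPM in WT replicate 1 at 50 ng against 19.1 to 19.6.

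Of the 33 Zfp-number symbols outside the rule, 7 had over 3 counts in a library at 10, 1 or 0.5 ng. Zfp69, in 3 of 8 libraries at 50 ng, had 71 counts (45.5 CPM) in GFAP-IL6 replicate 1 at 0.5 ng and none in the other 0.5 ng libraries.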

How the results depend on the processing

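Between genotypes at 10 ng, the 0 members called became 2 with DESeq2 (Zfp462 and Zfp652, among 52 genes of 12043). They became 1 without a filter on low counts (among 46 of 18383) and 1 under the replicate block (among 47 of 12043). Without single libraries they ran from 0 to 1 (Zfp462, without GFAP-IL6 replicate 1 or 3, among 33 of 12370 and 35 of 12124 genes). At the other inputs and at 0.5 against 1 ng every fit gave 0, leaving out single libraries included, but for the single fit of all 32 libraries, which called 18 at 0.5 against 1 ng (4 higher, 14 lower, among 516 genes of 13392). At 1 against 10 ng the 1 call fell to 0 with filterByExpr, under the replicate block, in the single fit and with same-numbered libraries thinned to the lower total, and ran from 0 to 1 without single libraries. At 0.5 against 10 ng the 8 calls became 4 with filterByExpr (among 50 genes of 11413) and 1 with the block (Zfp605, among 22 of 13283). The single fit gave 14 (1 higher, among 437 genes of 13392). The calls numbered 7 or 8 under DESeq2, its size factors, no filter and thinning, among 210, 178, 137 and 132 genes. Without single libraries they ran from 0 to 13, among 9 to 298 genes. DESeq2's 8 were partly other genes: Zfp146, Zfp873 and Zfp935 were lost, and Zfp369, Zfp566 and Zfp771 came in. Zfp146 was also lost without the filter and with thinning. In filterByExpr fewer members were tested (226 against 270); the cause of the other shifts was not tested.

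In the labels, same-numbered libraries share only a number. As a hint from the data, every low-input library correlated best with its own number (8 of 8 in each comparison of inputs). Between genotypes this held for 3, 4, 4 and 1 of 4 libraries at 50, 10, 1 and 0.5 ng. What the number stands for was not tested. Under the block the median log2 fold change of members and of all genes was -0.50 and -0.20 at 1 against 10 ng, -1.25 and -0.52 at 0.5 against 10 ng, and -0.49 and -0.21 at 0.5 against 1 ng.

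Members detected for CPM above 1 were 271, 265, 198 and 158 at 50, 10, 1 and 0.5 ng. For at least 3 counts they were 274, 267, 177 and 145.5. When thinned to the lowest total they were 224, 218, 173 and 142. The summed CPM was 5522, 5373, 5088 and 5162 over nuclear genes only and 3777, 3703, 3538 and 3536 without the 5 highest members. Leaving out a replicate number gave 291 to 298, 283 to 291, 198 to 227 and 161 to 184 members detected, and sums of 4565 to 4690, 4489 to 4544, 4195 to 4335 and 4285 to 4418 CPM. No direction was reversed. Totals near 261378 counts leave a count of 0 with little information on genes of a few CPM.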
